A study of Mus musculus with 21 samples.

Results

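The genes described here encode the main chains of the basement membrane: the collagen IV chains COL4A1 and COL4A2, the laminin chains LAMA2, LAMA4, LAMA5, LAMB1, LAMB2 and LAMC1, and the nidogens NID1 and NID2. The 10 genes were chosen by name, and symbols are given in upper case as the count tables list them. They are 10 of the 24447 genes listed in all 3 tables, which hold 24532 genes for mouse embryonic fibroblasts (MEF), 24455 for wound-healing fibroblasts and 24455 for cancer-associated fibroblasts (CAF). The study asked what loss of Prrx1, a homeobox transcription factor, changes in mouse fibroblasts, and measured RNA by sequencing in 7 groups of 3 cultures. WT MEF, Prrx1 mutant MEF and sgPrrx1 MEF came from embryos at embryonic day 10 to 13. The labels give C57BL/6 for the MEF, and the mutant embryos carried the 129S-Prrx1tm1Jfm/Mmmh allele, in which a LacZ cassette interrupts Prrx1. Wound-healing fibroblasts, WT and sgPrrx1, were grown from the dorsal skin of C57BL/6 mice 10 days after wounding. CAF, WT and sgPrrx1, were grown from breast tumours of FVB/NJ mice that carried the MMTV-PyMT oncogene. In the sgPrrx1 groups Prrx1 was targeted by CRISPR/Cas9 with a guide RNA, and the WT controls are described as carrying a non-targeting guide, although the sources used here do not state this for WT MEF. All lines were immortalised with the human papillomavirus genes E6 and E7 and grown in serum-containing medium, so what is reported holds for immortalised lines in monolayer culture. The labels do not say whether the 3 samples of a group were separate lines or animals, so p-values measure only the spread between these samples, which may be technical.

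Basement membranes are thin sheets of matrix that underlie epithelium and endothelium and surround muscle, fat and nerve. Collagen IV chains assemble as trimers, of which the most widespread holds COL4A1 and COL4A2 chains, and the trimers link into a network. Laminins are built from an alpha, a beta and a gamma chain, of which the alpha chain carries the main sites for cell receptors. Nidogens bind both laminin and collagen IV and so connect the networks. Fibroblasts make several of these proteins, and the laminin alpha 2 and alpha 4 chains are usually made by mesenchymal cells.

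Total counts per culture ran from 69588655 in sgPrrx1 wound fibroblasts, replicate 3, to 134790440 in WT CAF, replicate 3. Levels are given as CPM, the share of a library's counts taken by a gene on a per-million scale, with edgeR's TMM factors, which correct for differences in library composition, over all 21 cultures. A change is a log2 fold change from edgeR's quasi-likelihood test with its standard error (SE), and a gene was called changed at a Benjamini-Hochberg adjusted p under 0.05 over all genes tested. In bulk cultures, fewer cells that make a transcript and less of it per cell cannot be told apart. PRRX1 itself stood at 192, 166 and 184 CPM in WT MEF, at 26.1, 20.7 and 19.9 CPM in Prrx1 mutant MEF and at 126, 94.9 and 140 CPM in sgPrrx1 MEF. It stood at 146, 143 and 152 CPM in WT wound fibroblasts and at 65.3, 64.2 and 65.1 CPM after sgPrrx1. In CAF it stood at 627, 632 and 636 CPM in WT and at 308, 309 and 301 CPM after sgPrrx1. PRRX1 RNA was thus lower in each loss group with no overlap, and edgeR called all 4 differences, from −3.04 (SE 0.14) in Prrx1 mutant MEF to −0.60 (SE 0.14, adjusted p = 0.0145) in sgPrrx1 MEF. A guide-induced edit need not lower the RNA, so the remaining RNA does not measure the remaining protein.

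Several properties set libraries apart before any basement membrane gene is read. CAF cultures held between 35246 and 59760 counts of XIST and 0 counts of the Y-linked genes DDX3Y, EIF2S3Y, KDM5D and UTY, whereas MEF and wound cultures held at most 11 counts of XIST. Sex, strain, tissue of origin and count table therefore cannot be told apart when CAF are set beside MEF or wound fibroblasts. MEF and wound fibroblasts share a labelled strain and the presence of Y-linked counts, but not tissue or table. Prrx1 mutant MEF held 0, 3 and 0 counts of KDM5D against 808, 744 and 923 in WT MEF. EIF2S3Y went the other way, at 1059, 955 and 735 counts in the mutant against 133, 148 and 178 in WT MEF. DDX3Y had 1844, 1782 and 1284 counts in the mutant against 1010, 1062 and 1518 in WT MEF. UTY had 751, 805 and 521 counts against 351, 348 and 603. Both overlapped only through replicate 3, with total counts of 71250774 in the mutant and 88418420 in WT MEF. The Y-linked counts are not scaled for depth. sgPrrx1 wound fibroblasts held between 164 and 183 counts of DDX3Y against 1622 to 1923 in WT, while their counts of EIF2S3Y overlapped those of WT. KDM5D had 1183, 1184 and 955 counts after sgPrrx1 against 974, 819 and 913 in WT wound fibroblasts. UTY had 931, 1003 and 833 counts against 825, 710 and 886. KDM5D and UTY overlapped only through replicate 3 of sgPrrx1, the smallest library, with 69588655 counts in all. These Y-linked genes were chosen after their values were seen. The summed level of 10 fibroblast markers was 12308 CPM in WT MEF, 6257 in Prrx1 mutant MEF and 10593.5 in sgPrrx1 MEF, with VIM the most abundant in each. It was 8319 CPM in WT wound fibroblasts and 3247 after sgPrrx1, and 31942 CPM in WT CAF and 15876 after sgPrrx1. The markers LUM and FAP had 0 counts in every Prrx1 mutant MEF culture. LUM was also at 0 in sgPrrx1 wound fibroblasts, and FAP in sgPrrx1 CAF.

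Across the 4 comparisons with WT, COL4A1, COL4A2, NID1 and NID2 all fell by at least 2-fold in Prrx1 mutant MEF and sgPrrx1 CAF, while COL4A1 and NID1 rose in sgPrrx1 MEF. LAMA4 fell in sgPrrx1 MEF and sgPrrx1 CAF and was not called in the other comparisons, and LAMA2, LAMA5, LAMB1, LAMB2 and LAMC1 rose in some comparisons and fell in others. NID2 was the only gene of the group to fall in all 4 comparisons. In Prrx1 mutant MEF, 6 of the 10 genes fell and 2 rose, against 30.5% and 29.4% of the 13616 genes tested. At a change of at least 2-fold, 4 fell and 2 rose, against 14.5% and 9.64% of all genes. In sgPrrx1 MEF, 6 fell and 2 rose, against 22.8% and 20.3% of 13372 genes tested, and at 2-fold 4 fell, against 8.97% of all genes, while 1.58% of all genes rose that far and COL4A1 and NID1 did not. Both MEF comparisons use the same WT MEF cultures. In sgPrrx1 wound fibroblasts 4 fell and 5 rose, against 39.3% and 38.3% of 13939 genes, but only LAMA2 changed by 2-fold, downward, against 7.06% of all genes that fell and 8.57% that rose that far. In sgPrrx1 CAF 8 fell and 1 rose, against 41.9% and 41.2% of 13903 genes, and 7 fell by at least 2-fold, against 12.8% of all genes, with 11.5% of all genes rising that far. The median log2 fold change of the 10 genes was −0.77 in Prrx1 mutant MEF, −0.68 in sgPrrx1 MEF, 0.14 in sgPrrx1 wound fibroblasts and −1.69 in sgPrrx1 CAF, and the median of all genes tested lay within 0.01 of 0 in each. So many genes were called that a call alone says little, and the sizes of the changes are given below.

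**Figure D1:**
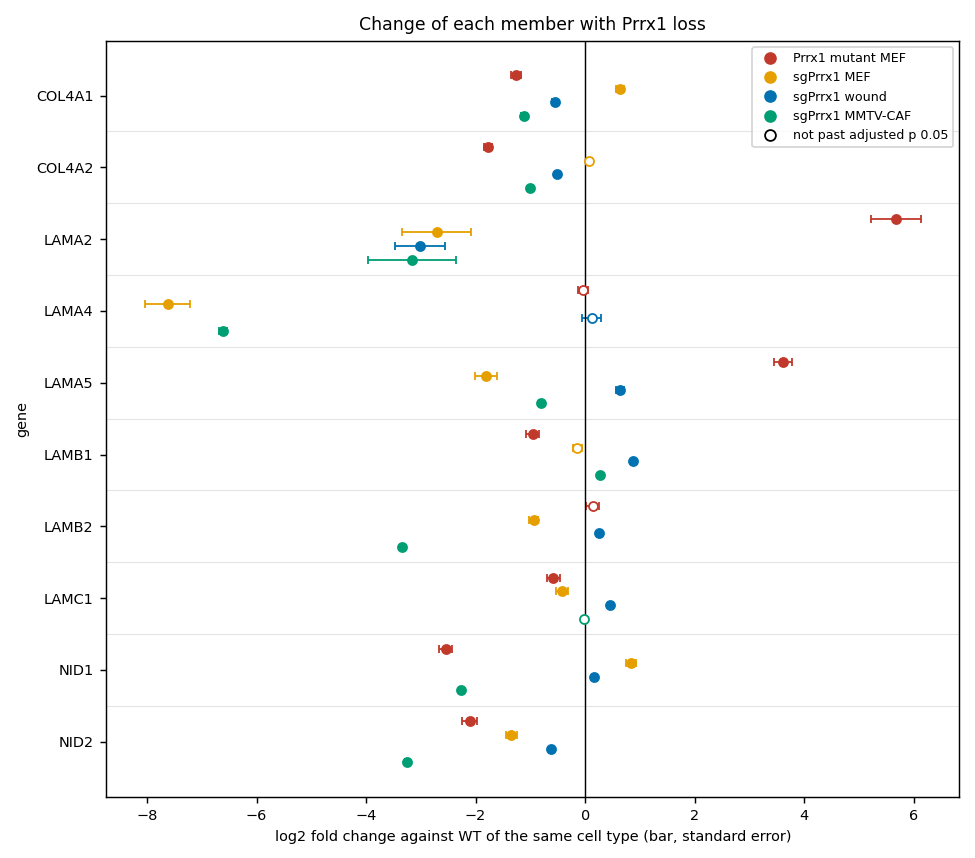
Log2 fold change (± SE, edgeR) of each basement membrane gene in each Prrx1-loss group against WT of the same cell type; filled points passed an adjusted p of 0.05 and open points did not. LAMA4 reached −7.63 in sgPrrx1 MEF and −6.61 in sgPrrx1 CAF, LAMA2 rose by 5.67 in Prrx1 mutant MEF, and the points of sgPrrx1 wound fibroblasts other than LAMA2 lie between −0.62 and 0.88.

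The collagen IV genes lie head to head on chromosome 8, COL4A1 on the minus strand (chr8:11198423-11312889) and COL4A2 on the plus strand (chr8:11312805-11449287, GRCm38.p6). Their start sites lie 21 bases apart and the gene spans overlap by 85 bases. The library kit did not keep strand, so reads from the overlap cannot be told apart, although it is a very small part of both transcripts. The sequences around the CCAAT letters in this shared promoter, and around those of LAMB1 and NID1, are printed because these are the only promoter windows of the group that hold them. The sequences are from RefSeq, GRCm38.p6, each on the strand of its own gene, and capitals mark CCAAT or its reverse complement ATTGG.
COL4A1 (chr8:11312957-11312981, minus strand): cttgcccgggATTGGcgagccaagg
COL4A2 (chr8:11312763-11312787, plus strand): gaggagctccCCAATttgttggcgc
LAMB1 (chr12:31265096-31265120, plus strand): aactcaagtaCCAATgccctacagc
NID1 (chr13:13437501-13437525, plus strand): gctcgctgccATTGGtagacgggac
The matches begin 145, 32, 187 and 91 bases before the start site of COL4A1, COL4A2, LAMB1 and NID1. Windows of 300 bases, 250 before and 50 from the start site, were found for 7 of the 10 genes and not for LAMA4, LAMC1 and NID2. CCAAT was in 4 of the 7, against 37.4% of 32851 mouse promoter windows, and GGGCGG on either strand was in 6 of the 7, against 35.7%. TAATTA, the core that many homeodomain proteins bind, and TGANTCA, the AP-1 element, were in 0 of the 7, against 5.29% and 7.81% of all windows. These matches are letters in a window, and Prrx1 binding data were not analysed here.

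COL4A1 stood at 1073, 1096 and 1204 CPM in WT MEF, at 503, 466 and 451 CPM in Prrx1 mutant MEF and at 1707, 1771 and 1792 CPM in sgPrrx1 MEF. The 3 MEF groups did not overlap, with the mutant lowest and sgPrrx1 highest. The fall to 41.4% of WT in the mutant (log2 fold change −1.27, SE 0.09, edgeR adjusted p = 4.00e-05) and the rise to 155% of WT after sgPrrx1 (0.63, SE 0.07, adjusted p = 0.00077) were both called. In wound fibroblasts COL4A1 stood at 603, 582 and 611 CPM in WT and at 393, 434 and 394 CPM after sgPrrx1, a fall to 67.8% (−0.56, SE 0.04). In CAF it stood at 1122, 1101 and 1056 CPM in WT and at 483, 559 and 491 CPM after sgPrrx1, a fall to 46.1% (−1.12, SE 0.05). Neither pair of groups overlapped.

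COL4A2, whose chain enters the same trimer, stood at 1173, 1184 and 1233 CPM in WT MEF, at 352, 351 and 360.1 CPM in Prrx1 mutant MEF and at 1271, 1272 and 1263 CPM in sgPrrx1 MEF. The fall to 29.1% of WT in the mutant was called (−1.78, SE 0.07, edgeR adjusted p = 3.99e-06). The sgPrrx1 MEF lay just above WT MEF without overlap, but the difference did not pass the test (0.07, SE 0.06, adjusted p = 0.369). In wound fibroblasts the values were 399, 397 and 399 CPM in WT and 283, 277 and 276 CPM after sgPrrx1, a fall to 69.7% (−0.52, SE 0.02). In CAF they were 1077.5, 1078 and 1052 CPM in WT and 547, 532 and 542 CPM after sgPrrx1, a fall to 49.9% (−1.004, SE 0.02). Both collagen IV genes fell in wound fibroblasts and CAF, where the ratio of COL4A2 to COL4A1 counts was 1.03 and 1.08 times that of WT (exact permutation test, p = 0.6 and 0.4, n = 3 each). In Prrx1 mutant MEF and sgPrrx1 MEF the ratio was 0.704 and 0.678 times that of WT, with no overlap, and an exact two-sided permutation test gave the smallest p that 3 against 3 cultures allow, 0.1 (0.12 after adjustment over 12 such ratio tests).

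In WT MEF the laminin alpha genes were the least abundant of the group. Per kilobase of annotated exon, merged over all transcripts of a gene, LAMA2, LAMA4 and LAMA5 together came to 1.68 CPM per kb in WT MEF. LAMB1 and LAMB2 together came to 85.1, LAMC1 to 62.4, the nidogens to 266 and collagen IV to 346. These merged lengths were 9728, 12068 and 11404 bases for LAMA2, LAMA4 and LAMA5, and 9917 and 5624 for LAMB1 and LAMB2. Levels and shares per kilobase depend on them. LAMA1 and LAMA3, the chains of early embryos and of epithelium, had at most 51 and 82 counts in any culture.

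LAMA4, the laminin alpha chain typical of vessels and mesenchyme, stood at 10.96, 10.1 and 10.2 CPM in WT MEF and at 10.1, 10.1 and 10.7 CPM in Prrx1 mutant MEF, groups that overlapped (−0.04, SE 0.09, edgeR adjusted p = 0.714). After sgPrrx1 the MEF held 4, 0 and 7 counts in all. The fall to 0.505% of WT (−7.63, SE 0.41, adjusted p = 3.16e-05) was the largest change of the group in any comparison with WT, and its exact size rests on those 11 counts. In CAF, LAMA4 stood at 93.9, 89.1 and 94.5 CPM in WT and at 0.985, 1.06 and 0.804 CPM after sgPrrx1, a fall to 1.02% (−6.61, SE 0.08, adjusted p = 1.99e-10). In wound fibroblasts it was near 1 CPM throughout, at 0.963, 0.964 and 0.915 CPM in WT and 1.02, 1.17 and 0.892 CPM after sgPrrx1, and the groups overlapped (0.12, SE 0.17, adjusted p = 0.558). LAMA4 therefore fell by far after sgPrrx1 in MEF (198-fold) and CAF (97.9-fold), and it was not called in sgPrrx1 wound fibroblasts or in the Prrx1 mutant MEF.

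LAMA2, the alpha chain of the laminin around skeletal muscle and Schwann cells, was at 52.7, 55.8 and 56.8 CPM in Prrx1 mutant MEF and below 2 CPM in every other culture. WT MEF held 51, 35 and 164 counts of it, or 0.740, 0.504 and 1.89 CPM. The rise in the mutant was called (5.67, SE 0.45, edgeR adjusted p = 6.95e-05), and its size rests on the few WT counts: without replicate 3 of WT MEF it was 6.44. sgPrrx1 MEF held 6, 18 and 10 counts, lower than WT without overlap (−2.71, SE 0.63, adjusted p = 0.0134), but the call was lost without replicate 3 of sgPrrx1 MEF (adjusted p = 0.0517). Wound fibroblasts held 76, 115 and 79 counts in WT and 4, 12 and 17 after sgPrrx1 (−3.02, SE 0.45). CAF held 14, 14 and 27 counts in WT and 0, 6 and 0 after sgPrrx1 (−3.16, SE 0.80, adjusted p = 0.00646). All 3 sgPrrx1 groups were thus below their WT, each at levels where single counts set the size of the change.

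LAMA5, the alpha chain most often found under epithelium and endothelium, stood at 9.37, 7.39 and 7.57 CPM in WT MEF and at 81.8, 106.7 and 115 CPM in Prrx1 mutant MEF, a 12.3-fold rise (3.62, SE 0.16, edgeR adjusted p = 6.11e-06). In sgPrrx1 MEF it stood at 2.96, 2.27 and 1.81 CPM, a fall to 28.6% of WT (−1.80, SE 0.20, adjusted p = 0.000652). The MEF groups did not overlap and moved to opposite sides of WT. LAMA5 rose in sgPrrx1 wound fibroblasts, at 9.30, 8.44 and 9.69 CPM against 6.03, 5.60 and 5.90 in WT (0.64, SE 0.07). It fell in sgPrrx1 CAF, at 15.7, 16.5 and 16.4 CPM against 27.7, 27.3 and 28.7 in WT (−0.80, SE 0.03).

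**Figure D2:**
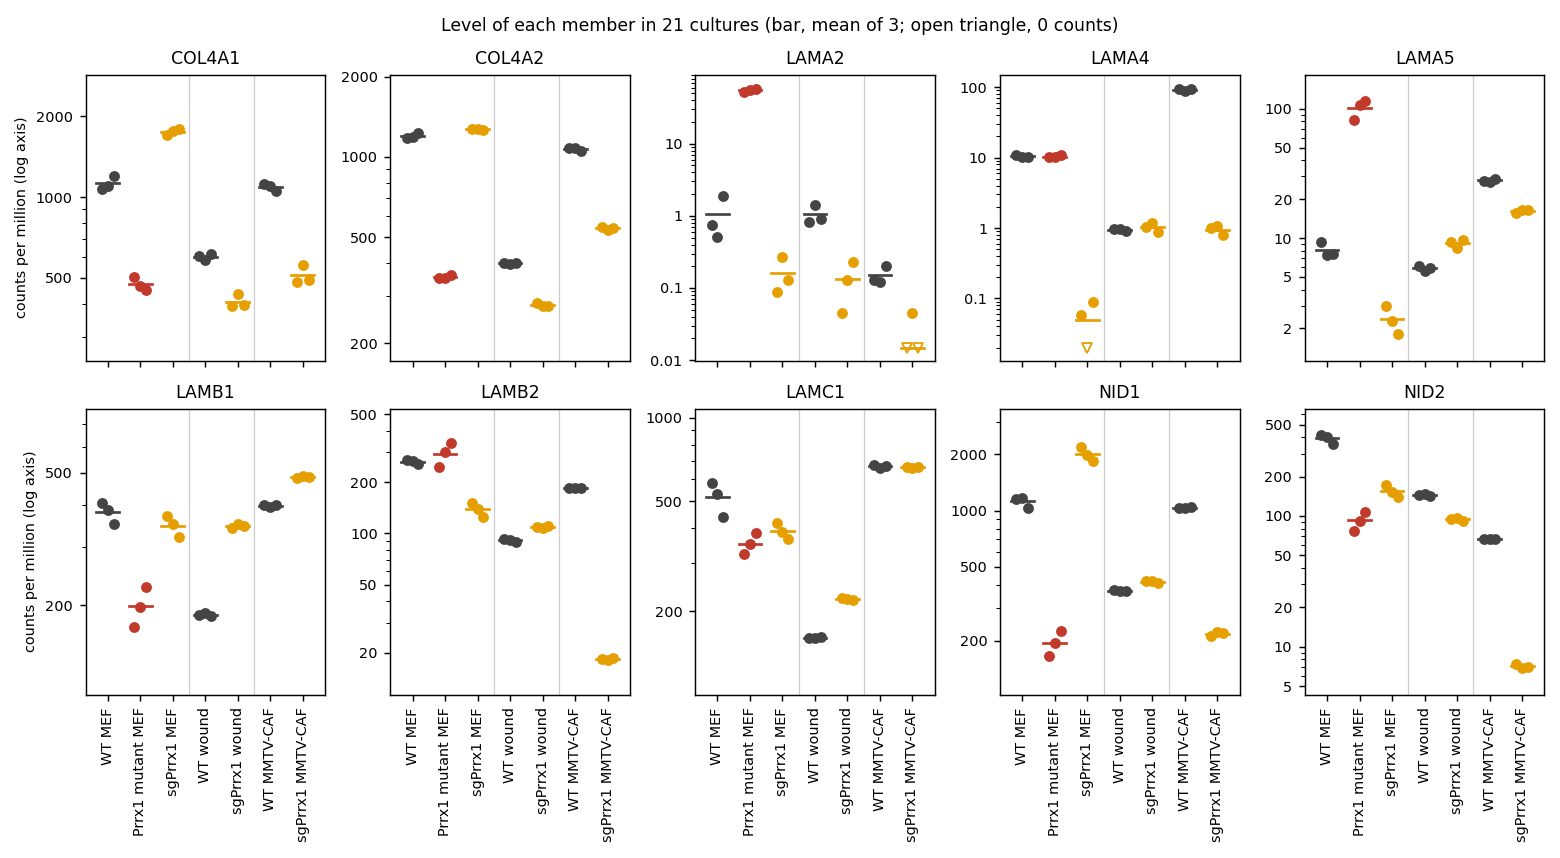
Level of each gene in every culture (CPM, log axis), with 3 points per group, bars at the mean and open triangles for cultures with 0 counts. LAMA2 stands out in Prrx1 mutant MEF at 52.7 to 56.8 CPM, LAMA4 drops out of sgPrrx1 MEF and sgPrrx1 CAF, and the group means of LAMB1 lie within 2.59 times of each other.

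LAMB1, the beta chain of most laminins of early and growing tissue, stood at 406, 386 and 351 CPM in WT MEF, at 173, 198 and 227 CPM in Prrx1 mutant MEF and at 369.7, 351 and 321 CPM in sgPrrx1 MEF. The fall to 51.4% in the mutant was called (−0.96, SE 0.11, edgeR adjusted p = 0.00042), while sgPrrx1 MEF overlapped WT MEF (−0.15, SE 0.08, adjusted p = 0.193). LAMB1 rose in sgPrrx1 wound fibroblasts, from 186, 189.7 and 185 CPM to 341, 352 and 346 CPM, or 184% of WT (0.88, SE 0.02), the largest rise of the group in these cells. It also rose in sgPrrx1 CAF, from 400.4, 396 and 399.6 CPM to 482, 488 and 486 CPM (0.26, SE 0.01), where it was the only one of the 10 genes to rise.

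LAMB2, the beta chain characteristic of mature muscle, nerve and kidney basement membranes, stood at 184, 184 and 185 CPM in WT CAF and at 18.3, 18.2 and 18.6 CPM after sgPrrx1. This fall to 9.84% of WT (−3.35, SE 0.02, edgeR adjusted p = 1.42e-11) had the smallest p of the group among the comparisons with WT. In MEF it stood at 269, 266 and 253 CPM in WT, 245, 299.9 and 337 CPM in the mutant and 151, 139.8 and 125 CPM after sgPrrx1. The sgPrrx1 MEF fell to 52.2% (−0.94, SE 0.08, adjusted p = 0.000245), and the mutant overlapped WT (0.14, SE 0.11, adjusted p = 0.332) but was called higher when its replicate 1 was left out (0.25, adjusted p = 0.035). Wound fibroblasts rose slightly, from 93.1, 91.4 and 88.8 CPM to 109, 107 and 111 CPM (0.25, SE 0.03).

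LAMC1, the gamma chain shared by nearly all laminins, stood at 579, 532 and 438 CPM in WT MEF, at 321, 350.3 and 383 CPM in Prrx1 mutant MEF and at 417, 386 and 364 CPM in sgPrrx1 MEF. It fell to 66.9% in the mutant (−0.58, SE 0.12, edgeR adjusted p = 0.00594) and to 74.7% after sgPrrx1 (−0.42, SE 0.11, adjusted p = 0.0218). The latter call was lost when replicate 2 or 3 of sgPrrx1 MEF or replicate 1 or 2 of WT MEF was left out, with adjusted p of 0.0792, 0.0746, 0.0645 and 0.0726. In wound fibroblasts LAMC1 rose from 160.4, 160.5 and 162 CPM to 223, 221 and 219.9 CPM (0.46, SE 0.02). In CAF it was at 674, 656 and 672 CPM in WT and at 663, 661 and 662 CPM after sgPrrx1, and the groups overlapped (−0.03, SE 0.01, adjusted p = 0.0906); without replicate 2 of WT CAF the difference was called, at −0.05.

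As shares of the laminin alpha RNA per kilobase, LAMA4 made up 51.5% ± 2.65 (SD, n = 3) in WT MEF and 1.99% ± 2.10 in sgPrrx1 MEF, and 75.7% ± 0.387 in WT CAF and 5.25% ± 0.720 in sgPrrx1 CAF. What remained in those sgPrrx1 cultures was mostly LAMA5, at 90.4% ± 3.87 in MEF and 94.7% ± 0.828 in CAF, although LAMA5 itself had fallen in both. In Prrx1 mutant MEF, LAMA5 made up 57.4% ± 3.51 and LAMA2 37.0% ± 2.96, against 42.2% ± 3.26 and 6.32% ± 4.41 in WT MEF. Wound fibroblasts had mainly LAMA5 already in WT, at 73.3% ± 4.22, and 89.0% ± 1.699 after sgPrrx1. The total alpha RNA was 1.68 ± 0.135 CPM per kb in WT MEF, 15.4 ± 1.77 in the mutant and 0.226 ± 0.0472 after sgPrrx1. In CAF it was 10.1 ± 0.301 in WT and 1.502 ± 0.0444 after sgPrrx1.

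Among the beta chains, LAMB2 made up 44.9% ± 0.119 of the RNA per kilobase in WT CAF and 6.27% ± 0.0799 after sgPrrx1. In MEF its share was 54.9% ± 1.09 in WT, 72.2% ± 0.657 in the mutant, where LAMB1 had fallen, and 41.2% ± 0.551 after sgPrrx1. In wound fibroblasts it went from 46.2% ± 0.553 in WT to 35.7% ± 0.645. By counts alone LAMB2 was at 0.662, 0.689 and 0.722 times LAMB1 in WT MEF, so which chain led there depends on the lengths used. The ratio of LAMB2 to LAMB1 was thus lower in all 3 sgPrrx1 groups and higher in the mutant, with no overlap in any pair. Each exact permutation test over 3 against 3 cultures gave 0.1, the smallest p it can give (0.12 adjusted).

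**Figure D3:**
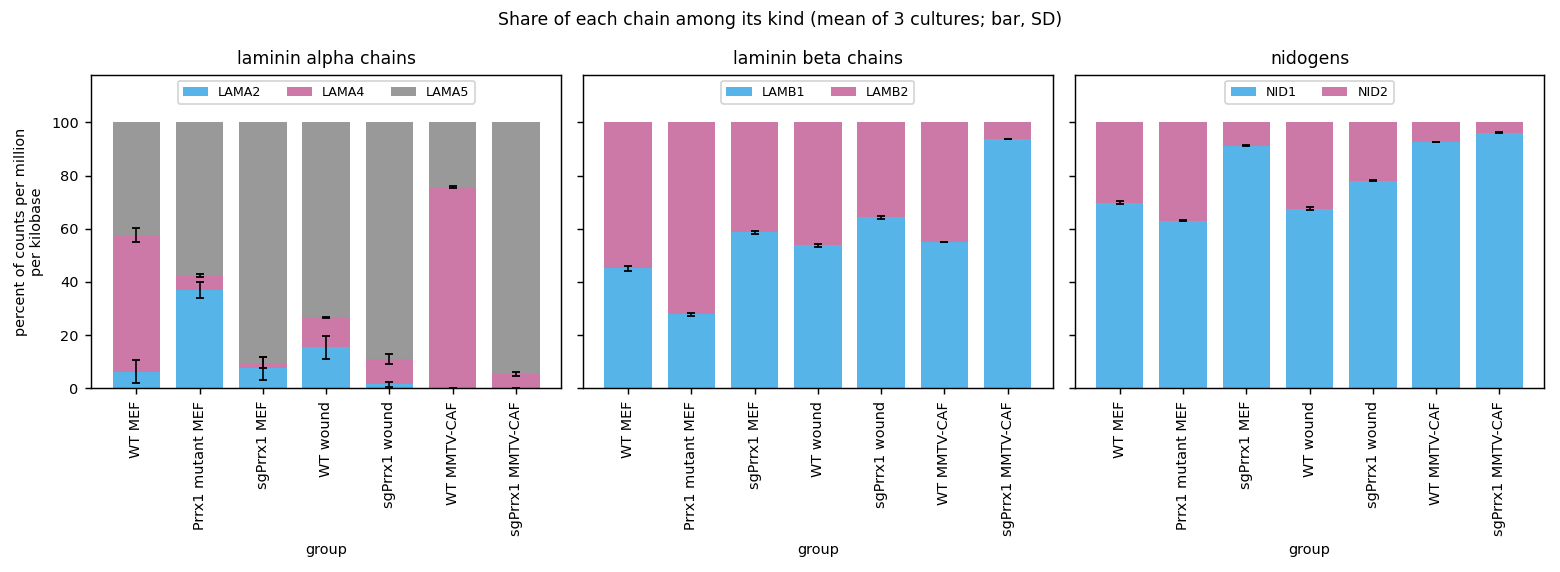
Mean share of each chain within the laminin alpha, laminin beta and nidogen RNA per kilobase, by group, with SD over 3 cultures. The LAMA4 share drops from 51.5% to 1.99% in sgPrrx1 MEF and from 75.7% to 5.25% in sgPrrx1 CAF, and the LAMB2 share drops from 44.9% to 6.27% in sgPrrx1 CAF.

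NID1 (chr13:13437602-13512275, plus strand) had the widest opposite changes in MEF of the abundant members, so the 250 bases before its start site are printed, from RefSeq, GRCm38.p6, with a CCAAT match (as ATTGG) and a GGGCGG match in capitals.
NID1 (chr13:13437352-13437601, plus strand): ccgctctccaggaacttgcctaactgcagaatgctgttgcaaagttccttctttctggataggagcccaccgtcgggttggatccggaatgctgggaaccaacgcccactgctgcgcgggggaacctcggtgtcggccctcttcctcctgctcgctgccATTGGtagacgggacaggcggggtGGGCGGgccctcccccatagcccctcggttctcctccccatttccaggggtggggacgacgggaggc
NID1 stood at 1151, 1175 and 1038 CPM in WT MEF, at 165, 194 and 225 CPM in Prrx1 mutant MEF and at 2202, 1998 and 1846 CPM in sgPrrx1 MEF. The mutant fell to 17.1% of WT (−2.55, SE 0.13, edgeR adjusted p = 8.45e-06) and sgPrrx1 MEF rose to 178% (0.83, SE 0.09, adjusted p = 0.000651), so that NID1 differed 10.3 times between the 2 loss groups. In CAF, NID1 stood at 1037, 1032 and 1048 CPM in WT and at 213, 222 and 221 CPM after sgPrrx1, a fall to 20.8% (−2.27, SE 0.02, adjusted p = 4.25e-11). In wound fibroblasts it rose slightly, from 373, 369 and 371 CPM to 418, 420.2 and 410.2 CPM (0.16, SE 0.02).

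NID2, the second nidogen, stood at 415, 405 and 358 CPM in WT MEF, at 77.1, 92.2 and 108 CPM in Prrx1 mutant MEF and at 173, 154 and 139.9 CPM in sgPrrx1 MEF. Both loss groups lay below WT, at 23.1% (−2.11, SE 0.13, edgeR adjusted p = 2.30e-05) and 39.2% (−1.35, SE 0.10, adjusted p = 0.000111). It fell from 145, 148 and 141 CPM to 94.6, 96.6 and 91.1 CPM in wound fibroblasts (−0.62, SE 0.03). In CAF it fell from 66.5, 66.2 and 67.0 CPM to 7.34, 6.89 and 7.002 CPM, or 10.5% of WT (−3.25, SE 0.03, adjusted p = 8.47e-11). As a share of nidogen RNA per kilobase, NID2 was 30.2% ± 0.54 in WT MEF, 37.0% ± 0.307 in the mutant and 8.71% ± 0.136 in sgPrrx1 MEF. The share went from 32.5% ± 0.559 to 21.9% ± 0.293 in wound fibroblasts and from 7.35% ± 0.011 to 3.85% ± 0.208 in CAF. NID2 relative to NID1 was lower without overlap in all 3 sgPrrx1 groups, and higher in the mutant (exact permutation p = 0.1, the smallest possible, 0.12 adjusted).

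The group levels of a gene can be put in order, although the 3 cell types come from separate tables and CAF also differ from the others in strain and sex. COL4A1 was highest in sgPrrx1 MEF at 1757 ± 44.6 CPM (SD, n = 3), followed by WT MEF at 1124 ± 69.8 and WT CAF at 1093 ± 33.9, which overlapped. WT wound fibroblasts came next at 598 ± 15.2, then sgPrrx1 CAF at 511 ± 41.7 and Prrx1 mutant MEF at 473 ± 26.8, which overlapped, and sgPrrx1 wound fibroblasts were lowest at 407 ± 23.6. COL4A2 was also highest in sgPrrx1 MEF, at 1269 ± 4.89 CPM, and lowest in sgPrrx1 wound fibroblasts, at 278 ± 4.07. The highest group mean was 4.31 times the lowest for COL4A1, 4.56 for COL4A2, 2.59 for LAMB1, 4.15 for LAMC1, 10.3 for NID1, 16.0 for LAMB2, 43.2 for LAMA5 and 55.5 for NID2. For LAMA4 and LAMA2, whose lowest groups held 11 and 6 counts in all, the range depends on those few counts and is not given.

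The sgPrrx1 effect differed between cell types for most of the genes when the difference itself was tested. Between CAF and wound fibroblasts, 9 of the 10 effects differed, all lower in CAF, against 76.3% of 14853 genes tested in either direction. The gaps were widest for LAMA4 (−6.73, SE 0.15), LAMB2 (−3.59, SE 0.03), NID2 (−2.63, SE 0.04) and NID1 (−2.42, SE 0.02), with an edgeR adjusted p of 6.62e-13 for LAMA4. Between wound fibroblasts and MEF, 9 differed, against 58.0% of 14354 genes, 6 of them higher in wound fibroblasts, among which LAMA4 (7.73, SE 0.41) and LAMA5 (2.43, SE 0.22) were the most different. Between CAF and MEF, 8 differed, against 57.8% of 14551 genes, with NID1 (−3.08, SE 0.10), LAMB2 (−2.39, SE 0.09) and NID2 (−1.89, SE 0.11) much lower in CAF. LAMA2 passed in no such test, with adjusted p from 0.786 to 0.902, and the LAMA4 effects in CAF and MEF did not pass either (1.04, SE 0.45, adjusted p = 0.0663), although DESeq2 called their difference (1.10, adjusted p = 0.0266), as did edgeR without replicate 3 of sgPrrx1 MEF (1.81, adjusted p = 0.0205). The change of PRRX1 RNA after sgPrrx1 was also smaller in MEF (−0.60) than in wound fibroblasts (−1.18) and CAF (−1.06), with edgeR adjusted p of 0.00787 and 0.0291 for those differences. The size of the PRRX1 RNA change and cell type therefore cannot be told apart here, and the extent of protein loss is not known from these data.

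The 2 MEF loss groups were also compared directly. Of the 10 genes, 9 differed between sgPrrx1 MEF and Prrx1 mutant MEF, against 56.2% of 13379 genes. COL4A1 (1.90), COL4A2 (1.85), LAMB1 (0.81), NID1 (3.38) and NID2 (0.76) were higher in sgPrrx1 MEF, and LAMA2 (−8.41), LAMA4 (−7.59), LAMA5 (−5.43) and LAMB2 (−1.08) were lower, as log2 fold changes by edgeR. LAMC1 did not pass the test (0.15, adjusted p = 0.175). The mutant carries the loss from the embryo onward and comes from other embryos, and the guide was given to cultured cells, so the kind of loss and the embryo of origin cannot be told apart.

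Of 9 further collagen IV and laminin chains, 7, 5, 8 and 5 could be tested in Prrx1 mutant MEF, sgPrrx1 MEF, sgPrrx1 wound fibroblasts and sgPrrx1 CAF. In the mutant 1 fell and 3 rose, against 30.5% and 29.4% of all genes tested. In wound fibroblasts 3 fell and 3 rose, against 39.3% and 38.3%, and in CAF 2 fell and 3 rose, against 41.9% and 41.2%. In sgPrrx1 MEF 0 of 5 were called by edgeR, against 22.8% of all genes called lower and 20.3% called higher. Of those 5, 3 had an unadjusted p under 0.05 and 1 was called by DESeq2. COL4A5, which with COL4A6 forms another collagen IV trimer, fell in the mutant from 134 to 61.5 CPM (−1.14, SE 0.19) and in wound fibroblasts from 134 to 102 CPM (−0.39, SE 0.02). In CAF it rose from 207 to 328 CPM (0.65, SE 0.03), and COL4A6 rose there from 26.8 to 116 CPM (2.09, SE 0.04), while COL4A1 and COL4A2 fell. COL4A5 in sgPrrx1 MEF (0.07, edgeR adjusted p = 0.746) and COL4A6 outside CAF did not pass. COL4A4, a chain of the kidney filter, was low and fell in wound fibroblasts from 2.25 to 0.537 CPM (−2.08, SE 0.17), and in MEF it had 0 counts in every WT culture and 94, 81 and 48 in the mutant. LAMB3, a beta chain of epithelial laminin, rose in the mutant from 0.934 to 2.19 CPM (1.20, SE 0.22). With at most 60 counts in any wound or CAF culture, LAMB3 also rose in wound fibroblasts and fell in CAF.

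Other basement membrane components were called in both directions. In Prrx1 mutant MEF 9 of 14 tested fell and 2 rose, against 30.5% and 29.4% of all genes tested. In sgPrrx1 MEF 8 of 14 fell and 1 rose, against 22.8% and 20.3%. In wound fibroblasts 4 of 15 fell and 9 rose, against 39.3% and 38.3%. In CAF 10 of 14 fell and 4 rose, against 41.9% and 41.2%. Whether the list as a whole differed between cell types was not tested. HSPG2, which encodes perlecan, the large heparan sulfate proteoglycan that binds laminin and collagen IV, fell in the mutant from 3004 to 1297 CPM (−1.24, SE 0.19) and in CAF from 970.1 to 562 CPM (−0.81, SE 0.02). It rose in wound fibroblasts from 655 to 1034 CPM (0.65, SE 0.01) and did not pass in sgPrrx1 MEF (−0.31, edgeR adjusted p = 0.112). AGRN, the proteoglycan agrin, fell in both MEF comparisons (−0.60 and −0.79) and rose in wound fibroblasts (0.67) and CAF (0.28). SPARC, a secreted collagen-binding protein, fell in all 4: from 1441 to 543 CPM in the mutant, to 882 CPM in sgPrrx1 MEF, from 1406 to 365 CPM in wound fibroblasts and from 1942 to 979 CPM in CAF.

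The other components were named for having the largest called changes of their list in a comparison. FRAS1, needed for epidermal attachment in the embryo, fell from 9.66 to 0.156 CPM in the mutant and to 0.285 CPM in sgPrrx1 MEF, and did not pass in wound fibroblasts (−0.30, edgeR adjusted p = 0.418). SMOC2, a relative of SPARC, rose in the mutant from 30.7 to 125 CPM (2.001, SE 0.09) and fell in sgPrrx1 MEF to 0.141 CPM (−7.72, SE 0.28), with 31 counts in all. It rose in wound fibroblasts from 1.26 to 5.23 CPM (2.04, SE 0.17) and fell in CAF from 600 counts in all to 18. FBLN2, a fibulin that binds nidogen, fell in the mutant from 2367 to 731 CPM (−1.72, SE 0.18), in sgPrrx1 MEF (−0.58, SE 0.14) and in CAF (−2.29, SE 0.02), and rose in wound fibroblasts (0.83, SE 0.01). NPNT, nephronectin, rose in the mutant from 12.3 to 46.6 CPM (1.90, SE 0.16) and in wound fibroblasts (0.23, SE 0.03), fell in CAF (−2.12, SE 0.03) and did not pass in sgPrrx1 MEF (0.04, edgeR adjusted p = 0.867). In CAF, COL15A1, a collagen at the edge of the basement membrane, fell from 14.8 to 0.263 CPM (−5.79, SE 0.19), and NTN4, netrin 4, which binds the laminin gamma chain, rose from 2.19 to 16.9 CPM (2.93, SE 0.06). COL15A1 had at most 35 counts in any MEF or wound culture and was called there only in the mutant, as lower, and NTN4 fell in wound fibroblasts (−1.32, SE 0.07) and was not called in MEF. TINAGL1, a secreted matrix protein, rose in CAF from 50.4 to 161 CPM (1.66, SE 0.10), in wound fibroblasts (0.86, SE 0.02) and in sgPrrx1 MEF (0.29, SE 0.07), and fell in the mutant from 228 to 110.5 CPM (−1.07, SE 0.11). In wound fibroblasts HMCN1, hemicentin 1, fell from 2.83 to 0.0677 CPM (−5.32, SE 0.34), and SMOC1 rose from 0.116 to 2.05 CPM (4.12, SE 0.22). SMOC1 fell in sgPrrx1 MEF (−0.64, SE 0.15) and in CAF (−0.75, SE 0.03) and did not pass in the mutant (0.30, adjusted p = 0.112). HMCN1 in CAF had 109, 67 and 146 counts in WT and 0 in each sgPrrx1 culture.

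Of the genes that fold, modify and crosslink collagen IV, 11 of 17 tested fell in sgPrrx1 MEF, against 22.8% of all genes tested. In wound fibroblasts 13 of 16 fell and 2 rose, against 39.3% and 38.3%. In CAF 10 of 16 fell and 4 rose, against 41.9% and 41.2%. In Prrx1 mutant MEF 6 of 17 fell and 5 rose, near the 30.5% and 29.4% of all genes. SERPINH1, the collagen chaperone HSP47, fell in the mutant (−0.98, SE 0.25) and in sgPrrx1 MEF (−0.64, SE 0.18). It varied widely between cultures, from 1206 to 2170 CPM in WT and from 668 to 1168 CPM in sgPrrx1 wound fibroblasts, and did not pass there (−0.63, edgeR adjusted p = 0.06) or in CAF (−0.56, adjusted p = 0.0585). PXDN, the peroxidasin that forms the sulfilimine crosslink of collagen IV, fell in the mutant from 364 to 165 CPM (−1.17, SE 0.15) and slightly in wound fibroblasts (−0.28), rose slightly in CAF (0.13), and did not pass in sgPrrx1 MEF (−0.26, adjusted p = 0.105). LOXL2, an oxidase that also crosslinks collagen IV, fell in the mutant from 67.5 to 29.6 CPM (−1.22, SE 0.10), in wound fibroblasts (−0.88, SE 0.03) and slightly in CAF (−0.07, SE 0.02), and did not pass in sgPrrx1 MEF (−0.22, adjusted p = 0.0595). P3H2, a prolyl 3-hydroxylase of basement membrane collagen, rose in the mutant from 13.5 to 37.2 CPM (1.44, SE 0.08) and fell in sgPrrx1 MEF to 5.34 CPM (−1.35, SE 0.08), in wound fibroblasts from 18.2 to 8.73 CPM (−1.06, SE 0.05) and in CAF (−1.31, SE 0.16). PLOD3, which adds sugars to collagen hydroxylysine, fell in CAF from 454 to 215 CPM (−1.09, SE 0.02), in sgPrrx1 MEF (−0.41, SE 0.06) and in wound fibroblasts (−0.19, SE 0.02), and did not pass in the mutant (0.13, adjusted p = 0.22). The prolyl 4-hydroxylase subunit P4HA3 fell in both MEF comparisons (−1.47 and −2.04) and in CAF (−0.87) and rose in wound fibroblasts (0.60).

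**Figure D4:**
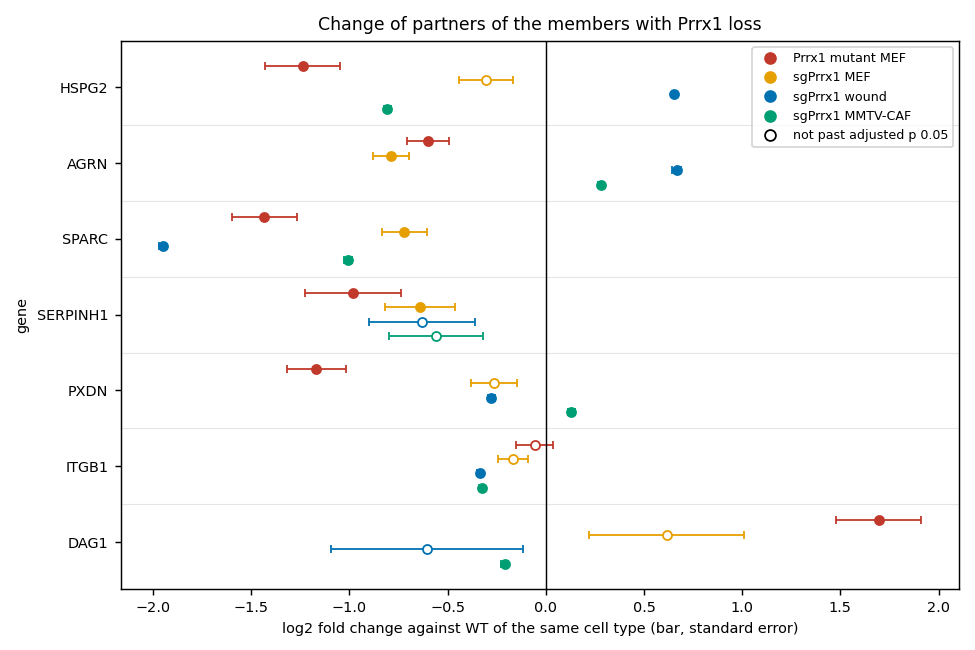
Log2 fold change (± SE, edgeR) of 7 partners of the basement membrane, HSPG2, AGRN, SPARC, SERPINH1, PXDN, ITGB1 and DAG1, in each Prrx1-loss group against WT; open points did not pass an adjusted p of 0.05. SPARC is below 0 in all 4 comparisons, from −0.72 to −1.95, and HSPG2 is below 0 in MEF and CAF and above 0 in wound fibroblasts.

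Of the receptors that bind these proteins, 6 of 13 tested fell and 5 rose in Prrx1 mutant MEF, against 30.5% and 29.4% of all genes tested. In sgPrrx1 MEF 2 of 13 fell and 5 rose, against 22.8% and 20.3%. In both wound fibroblasts and CAF 7 of 14 fell and 5 rose. Of all genes, 39.3% fell and 38.3% rose in wound fibroblasts, and 41.9% and 41.2% in CAF. ITGB1, the beta chain of most laminin and collagen integrins, changed little: it was not called in either MEF comparison (−0.06 and −0.17) and fell by 0.34 and 0.33 in wound fibroblasts and CAF. ITGA6, an alpha chain of laminin integrins, stood at 60.9 CPM in WT MEF, fell to 12.2 CPM in the mutant (−2.35, SE 0.14) and rose to 217 CPM in sgPrrx1 MEF (1.82, SE 0.09). It fell in wound fibroblasts from 30.9 to 13.9 CPM (−1.16, SE 0.04) and rose in CAF (0.59, SE 0.03). ITGB4, its other partner, was below 5 CPM throughout, and fell in both MEF comparisons (−2.83 and −1.61) and rose in wound fibroblasts (2.06) and CAF (0.79). DAG1, dystroglycan, a receptor of laminin alpha chains, rose in the mutant from 78.1 to 256 CPM (1.69, SE 0.22), where LAMA2 also rose, fell slightly in CAF (−0.21), and did not pass in the other comparisons. Its cultures were uneven, from 64.3 to 203 CPM in sgPrrx1 MEF and from 26.7 to 142 CPM in sgPrrx1 wound fibroblasts. ITGA1, an alpha chain that binds collagen IV, fell in sgPrrx1 MEF from 3.66 to 0.358 CPM (−3.35, SE 0.21), in the mutant (−1.55, SE 0.23) and in CAF (−1.06, SE 0.05), and did not pass in wound fibroblasts (0.24, adjusted p = 0.355). SDC4, syndecan 4, rose in the mutant (1.09), in sgPrrx1 MEF (0.20) and in CAF (1.01) and fell in wound fibroblasts (−0.69). In CAF, ITGA2, a collagen receptor chain, went from 998 counts in all to 0, and BCAM, a receptor for laminin alpha 5, from 1297 counts to 3. A count of 0 allows up to 3 counts, or at most 0.0268 CPM in these cultures, by counting error only. In wound fibroblasts both ITGA2 (2.04) and BCAM (0.35) rose, and in MEF BCAM fell in the mutant (−2.76) and did not pass after sgPrrx1 (−0.25, edgeR adjusted p = 0.19).

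Over the 21 cultures the log2 levels of COL4A1 and COL4A2 correlated at r = 0.944 and those of COL4A1 and NID1 at 0.919, given as a description, since the cultures share tables, strains and groups. LAMB2 and NID2 correlated at 0.823, LAMB1 and LAMC1 at 0.741 and LAMA2 and LAMA5 at 0.729. Among 15093 genes, those whose log2 level followed the mean of COL4A1 and COL4A2 most closely were FRMD4A (r = 0.977), DVL2 (0.970), KIF1C (0.959), EEF2K (0.956) and TTC7 (0.955).

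Markers of cell types that are rich in basement membrane moved in some of the comparisons. Of 8 endothelial markers, 3 had 0 counts in WT and sgPrrx1 wound fibroblasts, yet their summed level was 290.3 CPM and 142 CPM, of which KDR made up 290.3 and 142 CPM. In MEF and CAF the endothelial sum was at most 9.35 CPM in any culture. The sum of 8 pericyte and smooth muscle markers, led by CSPG4 in all groups but sgPrrx1 wound fibroblasts, where MCAM led, was 311 CPM in WT MEF, 147 in the mutant and 215 after sgPrrx1. In CAF it was 69.5 CPM in WT and 10.1 after sgPrrx1, and in wound fibroblasts 58.0 and 64.2 CPM. The pericyte markers ABCC9 and KCNJ8 had 0 counts in both CAF groups. Parietal endoderm is an embryonic layer that secretes much collagen IV and laminin, and the sum of its 8 markers was 88.1 CPM in WT MEF, 71.0 in the mutant and 63.2 after sgPrrx1, mostly THBD, and SOX17 had 0 counts in every group. It was 335 and 370.4 CPM in WT and sgPrrx1 CAF and 87.8 and 98.6 CPM in WT and sgPrrx1 wound fibroblasts. Schwann cells are covered by a laminin alpha 2 basement membrane, and the sum of their 8 markers was 1.46 CPM in WT MEF and 1.18 in the mutant, with SOX10 at 0 in every group. In CAF it was 13.1 and 18.5 CPM, mostly MBP, and in wound fibroblasts 3.65 and 4.85 CPM. The sum of 8 adipocyte markers, mostly LPL in WT groups, was 83.1 CPM in WT MEF, 24.8 in the mutant and 39.4 in sgPrrx1 MEF, 21.4 and 7.65 CPM in WT and sgPrrx1 wound fibroblasts, and 940 and 626 CPM in WT and sgPrrx1 CAF, with LEP at 0 in every group. The sum of 8 epithelial markers was at most 13.7 CPM and that of 8 haematopoietic markers at most 27.7 CPM in any culture, with CD14 the most abundant of the latter. The part of these markers in the changes above was not tested. Of the fibroblast markers tested, all 8 fell in the mutant, against 30.5% of all genes tested. In sgPrrx1 MEF 7 fell and 1 rose, against 22.8% and 20.3%. All 10 fell in sgPrrx1 wound fibroblasts, against 39.3%, and 7 fell and 2 rose in sgPrrx1 CAF, against 41.9% and 41.2%.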

How the data were processed

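RNA-seq was done on 21 cultures, 3 in each of 7 groups, with an unstranded kit and paired reads. Per the study's methods, the authors trimmed reads with Trimmomatic, aligned them to mm10 with STAR and deposited raw counts per gene made with HTSeq, in 1 table per cell type. A batch correction of counts is named in the methods, and whether it was used for these tables is not stated there. All 21 columns matched a sample and 0 columns had none. Column names of the wound table show genotype and replicate only, and its cell type follows from the other tables holding every MEF and CAF column. No row without a gene name entered a library size. Counts were tested with edgeR 4.0.16 (glmQLFit and glmQLFTest, TMM factors, filterByExpr) in R 4.3.3, each comparison with the cultures of its own groups and the tests of differences between cell types on all groups involved, and p-values were adjusted over all genes tested. Levels are CPM with TMM factors over the genes listed in all tables, and levels of different cell types come from separate tables. CPM per kb used the length of all annotated exons of a gene, merged over its transcripts, from an NCBIM37 annotation. Lengths only and no coordinates were taken from it. Positions and promoters are from GRCm38.p6. DESeq2 1.42.0, other scaling factors, other filters, counts divided by 2, a replicate block and leaving out each culture were the alternatives. The procedure was tested on simulated data: with 200 of 13594 genes shifted by 1.5 on the log2 scale in counts drawn for Prrx1 mutant and WT MEF, edgeR found 99% of the shifted genes, while 5.71% of the genes it called had not been shifted. For the difference between the sgPrrx1 effects in CAF and wound fibroblasts, with 200 of 14526 genes shifted by as much, the shares were 88.5% and 3.28%. The simulated counts had the same dispersion for every gene. Far fewer genes were shifted than the 8155 called between Prrx1 mutant and WT MEF, so these shares need not hold for the measured counts. Replicate pairs differed by 14.9 to 234 times the sampling noise (chi-square per gene), so none was a library deposited more than once. Counting intervals and the limit of 3 counts cover counting error only. The 10 genes and the related lists were chosen with earlier results of these data known. Beside PRRX1 and the 10 genes, those named are 7 fixed partners, from each related list the 2 called genes with the largest fall and rise per comparison at a mean of at least 1 CPM in either group, and the 5 genes most correlated with collagen IV. Markers of cell types are named, outside this rule, as the most abundant of their list or for having 0 counts. LAMA1, LAMA3 and the sex-linked genes were named after their values were seen. 1 gene that the rule names is not reported here.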

Additional observations from a re-analysis of the deposited data

Results flagged for a closer look

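The sgPrrx1 effect (log2 fold change against WT) differed between cell types in edgeR's test of the difference, at an adjusted p under 0.05, for the genes below, and each value is the effect in the first cell type minus that in the second. For CAF minus wound fibroblasts the differences were −0.55 for COL4A1, −0.48 for COL4A2, −6.73 for LAMA4, −1.44 for LAMA5, −0.61 for LAMB1, −3.59 for LAMB2, −0.48 for LAMC1, −2.42 for NID1 and −2.63 for NID2. For wound fibroblasts minus MEF the differences were −1.20 for COL4A1, −0.61 for COL4A2, 7.73 for LAMA4, 2.43 for LAMA5, 1.02 for LAMB1, 1.18 for LAMB2, 0.87 for LAMC1, −0.68 for NID1 and 0.71 for NID2. For CAF minus MEF the differences were −1.73 for COL4A1, −1.06 for COL4A2, 1.02 for LAMA5, 0.43 for LAMB1, −2.39 for LAMB2, 0.41 for LAMC1, −3.08 for NID1 and −1.89 for NID2. The effects were called with opposite signs in CAF and wound fibroblasts for LAMA5, LAMB2 and NID1, in wound fibroblasts and MEF for COL4A1, LAMA5, LAMB2 and LAMC1, and in CAF and MEF for COL4A1 and NID1. Groups of 3 cultures were not searched for single outlying cultures.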

How the results depend on the processing

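The log2 fold changes of the 10 genes were recomputed with other scaling factors, other filters, counts divided by 2, DESeq2, a replicate block and each culture left out, and 664 of 673 such values in single comparisons kept their direction and side of the threshold, with 5 calls lost, 3 gained and 1 change of sign. The calls lost were those of LAMC1 and LAMA2 in sgPrrx1 MEF named in the report. LAMA4 in Prrx1 mutant MEF, never called, ran from −0.061 to 0.00041 with each culture left out. Of 565 values for differences between cell types, 551 stayed, 2 calls of LAMA4 between CAF and MEF were gained (1.10 by DESeq2 and 1.81 without replicate 3 of sgPrrx1 MEF), and the 12 changes of sign were all of LAMA2, which no setting called. With each culture left out it ran from −3.87 to 0.44 for CAF minus wound fibroblasts, from −1.11 to 0.23 for wound fibroblasts minus MEF and from −4.14 to 0.13 for CAF minus MEF, and it was 0.0076 for CAF minus wound fibroblasts with counts divided by 2. LAMA2 itself ran from −7.17 to −2.65 in sgPrrx1 CAF, the extreme being without replicate 2, which leaves 0 counts. Requiring at least a 2-fold change left 3283 genes in Prrx1 mutant MEF, 1411 in sgPrrx1 MEF, 2179 in wound fibroblasts, 3377 in CAF and 2838 between the MEF loss groups, and 4 and 1 of the 10 genes in sgPrrx1 MEF and wound fibroblasts. In sgPrrx1 MEF 5764 genes were called, and 3830 to 6340 with 1 culture left out, the lowest without replicate 2 of WT MEF (3830) or of sgPrrx1 MEF (3834). At least 10 counts in every culture removed LAMA2 and LAMA4 from the sgPrrx1 MEF test. Deviations of same-numbered cultures correlated between −0.35 and 0.20, so the numbers do not pair cultures. With a replicate block 6457, 6629, 10518 and 11320 genes were called in the 4 comparisons with WT and LAMB1 was called in sgPrrx1 MEF (−0.15, edgeR adjusted p = 0.0387), and the block changed no other call of the 10 genes. Levels scaled by library totals alone differed by at most a factor of 1.08. Depth limits LAMA2 in most groups and LAMA4 in sgPrrx1 MEF, where few counts were found.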
